A study of Mus musculus with 10 samples.

Results

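The mesendoderm regulators described here were 10 genes, T, Eomes, Mixl1, Gsc, Cer1, Lhx1, Foxa2, Evx1, Mesp1 and Wnt3, among the 21853 protein-coding genes listed in each library. They were chosen by name as known regulators of the primitive streak and its derivatives, and each was found once under its symbol. In the mouse epiblast, Wnt and Nodal signals switch on the T-box factors T (Brachyury) and Eomes, which act with homeobox and forkhead factors to turn pluripotent cells into mesoderm and definitive endoderm. Wnt3 is the ligand that starts this sequence, and Cer1 is a secreted inhibitor of Nodal, Wnt and BMP. T is also a known target of β-catenin, which accumulates when GSK3 is inhibited.

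The 10 RNA libraries came as 2 each from 5 mouse ESC lines and were made to ask what the loss of Gys1 and AMPK, singly or together, does to J1 cells. Naïve ESCs were J1 cells labelled WT. AKO carried an AMPK knockout, GKO a GYS1 knockout, and DKO both knockouts in the same background. These 4 lines were grown on gelatin in DMEM with 15% FBS, 1000 U/ml LIF, the MEK inhibitor PD0325901 at 1 μM and the GSK3 inhibitor CHIR99021 at 3 μM. Every one of these 8 libraries therefore came from cells under GSK3 inhibition. Primed ESCs (PJ1, also labelled WT) were grown on Matrigel in DMEM/F12 with 20% KnockOut Serum Replacement, 10 ng/ml bFgf and 20 ng/ml Activin, so that medium and cell state cannot be told apart in the primed comparison. According to the study's methods, Gys1 was disrupted with Cas9 and a guide RNA, and Prkaa1, which encodes AMPKα1, with a commercial Cas9 plasmid and an RFP donor plasmid. The clones behind the libraries are not given in the sources used here, so a clone's own differences and its knockout cannot be told apart. Nothing in the labels says that the 2 libraries of a line came from separate cultures, and the p-values then measure only the spread between these libraries, which may be technical.

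The deposited values are TPM, an abundance corrected for transcript length that can be compared between genes. TPM keeps no depth, so the number of reads behind a value is unknown and no detection limit was derived. Between 10537 and 11113 genes reached 1 TPM in a library. The protein-coding genes of the tables do not share 1 sum, with naïve ESCs at 578066 and 565209 TPM beside 517712 and 531306 TPM for GKO. Median-ratio scaling ended the small GKO calls of Gys1 and Pou5f1 given below but not that of Eomes. The median absolute difference between the libraries of a line, on the log2(TPM + 1) scale, was 0.056 in naïve ESCs, 0.067 in AKO, 0.070 in DKO, 0.065 in GKO and 0.13 in primed ESCs. The primed libraries stood apart from each other for the members. Their summed level was 41.7 TPM in primed library 1 and 5.47 TPM in primed library 2, whereas the sums in the other 8 libraries lay between 24.8 and 40.3 TPM. Primed results are therefore given with and without each of these libraries.

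The knocked-out genes were examined first. Prkaa1 had 15.5 and 16.6 TPM in naïve ESCs, 7.24 and 6.94 in AKO, 2.30 and 2.04 in DKO, 12.2 and 12.0 in GKO, with 13.4 and 13.7 in primed ESCs. Both AKO and both DKO libraries were below all others, and DKO was below AKO. GKO was also below naïve ESCs (-0.38, SE 0.067, adjusted p = 0.000953). On the log2(TPM + 1) scale Prkaa1 fell by 1.07 in AKO (SE 0.067, adjusted p = 0.00088, limma) and by 2.43 in DKO (SE 0.067, adjusted p = 9.22e-08, limma). For Gys1 the naïve libraries held 11.5 and 10.8 TPM, AKO 12.7 and 12.2, DKO 12.1 and 11.7, GKO 9.70 and 9.98, and primed ESCs 13.6 and 14.3. Its lowest libraries were the GKO ones, by a small margin, and DKO was not below naïve ESCs. The GKO difference from naïve ESCs was -0.16 (SE 0.056, adjusted p = 0.0317, limma), a call that was lost without naïve library 1 (adjusted p = 0.196), GKO library 1 (0.128) or GKO library 2 (0.0640), after median-ratio scaling (0.0715) and with all 10 libraries in the fit (0.05), over a range of 0.0284 to 0.196 in 13 alternatives. A transcript with a small indel can still be counted, so the Gys1 level says nothing of how many alleles were disrupted. Prkaa2, which encodes the other AMPKα isoform, had 2.38 and 2.41 TPM in naïve ESCs, 2.71 and 2.44 in AKO, 3.29 and 3.10 in DKO and 3.27 and 3.29 in GKO, with 8.30 and 9.38 in primed ESCs. It was present in every line, and its DKO and GKO libraries lay above those of naïve ESCs and AKO.

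All 4 lines in serum, LIF and 2i kept the markers of naïve pluripotency. The most abundant general pluripotency gene, Pou5f1, lay between 705 and 838 TPM in the 8 libraries, and the primed libraries held 517 and 431 TPM. Of the 5 general pluripotency genes, 2 were higher and 1 lower than in naïve ESCs both in GKO and in DKO, a share near that over all tested genes (63.0% in GKO and 57.9% in DKO). In GKO the higher ones were Sall4 (0.47, SE 0.042) and Lin28a (0.19, SE 0.046, called in all alternatives but the fit of 10 libraries). In DKO they were Sall4 (0.61, SE 0.042) and Utf1 (0.49, SE 0.096, lost in the fit of 10 libraries), and Lin28a was lower (-0.33, SE 0.046). Pou5f1 was the lower one in GKO (-0.17, SE 0.057, adjusted p = 0.0278, limma), but the call was lost in 7 of 13 alternatives (adjusted p from 0.0163 to 0.312). These were no filter (0.0579), median-ratio scaling (0.0551), all 10 libraries (0.125), the fits without naïve library 1 (0.127), naïve library 2 (0.0854) or GKO library 1 (-0.11, adjusted p = 0.164), and quantile normalization, which turned the sign (0.054, adjusted p = 0.312). The 9 naïve markers summed to 1632 and 1600 TPM in naïve ESCs, 1661 and 1648 in AKO, 1809 and 1803 in DKO and 1781 and 1867 in GKO, and to 137 and 139 TPM in primed ESCs, and Dppa3 was listed at 0 in both primed libraries. The 8 primed markers summed to 51.3 and 52.4 TPM in naïve ESCs, 45.3 and 43.8 in AKO, 56.6 and 58.7 in DKO and 76.6 and 76.6 in GKO, and to 491 and 498 TPM in primed ESCs. The sums were close between the primed libraries, but single primed markers were not, with Sfrp2 at 57.1 and 36.2 TPM and Fgf5 at 10.7 and 0.447 TPM.

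Among the members, Eomes and T stood at the top in the naïve state. In naïve ESCs the order by mean TPM was Eomes (20.1), T (15.1), Evx1 (2.60), Mixl1 (1.25), Gsc (0.392), Lhx1 (0.117), Mesp1 (0.107), Wnt3 (0.104), Foxa2 (0.034) and Cer1 (listed at 0). The ranges of the libraries did not overlap between neighbours in this order, except between Lhx1 and Mesp1 and between Mesp1 and Wnt3. Eomes and T were also first in AKO and DKO, without overlap, while in GKO the T and Eomes libraries overlapped (means of 18.3 and 17.3 TPM). Primed ESCs had Cer1 first with a mean of 5.14 TPM, but each gene in that order overlapped its neighbour down to Mixl1, since every member from Cer1 to Mixl1 was higher in primed library 1 than in primed library 2.

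**Figure D1:**
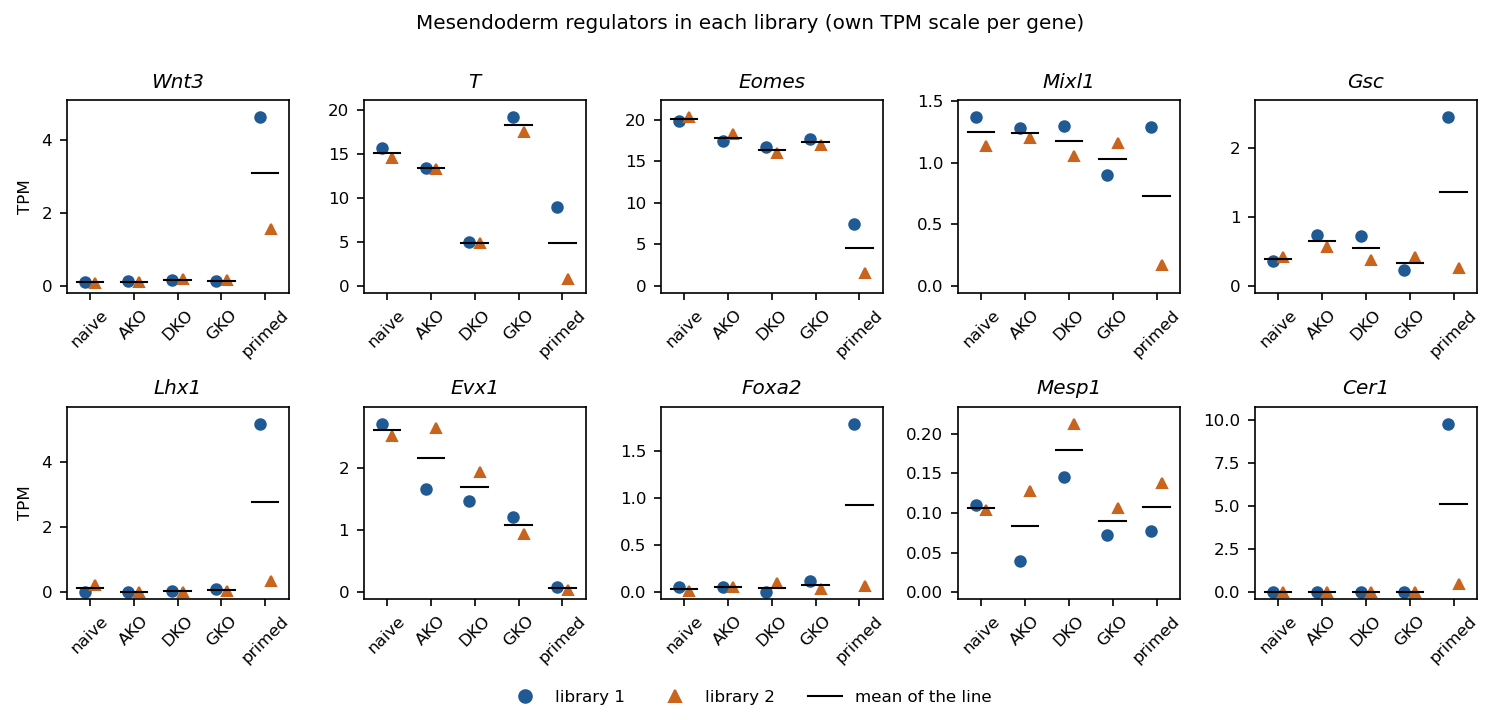
TPM of the 10 mesendoderm regulators in each library (circles, library 1; triangles, library 2; lines, mean of the 2 libraries), with a TPM scale of its own for each gene starting near 0. T was lowest among the serum/LIF/2i lines in DKO (4.94 and 4.89 TPM), and primed library 1 was above primed library 2 for 9 of the 10 genes.

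Wnt3, the ligand at the head of the sequence, was close to absent in the naïve state. It had 0.116 and 0.092 TPM in naïve ESCs, 0.128 and 0.112 in AKO, 0.170 and 0.182 in DKO, 0.131 and 0.151 in GKO, with 4.62 and 1.57 in primed ESCs. Both primed libraries were above the other 8, in which no library reached 0.2 TPM. Wnt3 passed the filter on low values (at least 1 TPM in at least 2 libraries) only through the primed libraries, so it had to differ there, and its primed change of 1.78 (SE 0.28, adjusted p = 0.000269, limma) is a description. It was 3.79 with a pseudocount of 0.1. When the filter was dropped, Wnt3 was also called higher in DKO, by 0.091 against naïve ESCs (adjusted p = 0.0184) and by 0.070 against AKO (adjusted p = 0.0461), at levels under 0.2 TPM throughout. Without primed library 1, or without primed library 2, it was not tested.

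T, the T-box factor of the streak and nascent mesoderm, had the widest range among the knockout lines. It had 15.7 and 14.5 TPM in naïve ESCs, 13.4 and 13.2 in AKO, 4.94 and 4.89 in DKO, 19.1 and 17.5 in GKO, with 8.97 and 0.786 in primed ESCs. Both GKO libraries were above both naïve ones, both AKO libraries were below them, and the DKO libraries were the lowest of the 8 in serum, LIF and 2i. In bulk RNA, fewer T-positive cells and less T mRNA per cell cannot be told apart. T rose by 0.26 on the log2(TPM + 1) scale in GKO against naïve ESCs (SE 0.062, adjusted p = 0.00534, limma) and fell by 1.44 in DKO against naïve ESCs (SE 0.062, adjusted p = 5.46e-07). DKO was also below AKO, by -1.28 (SE 0.062, adjusted p = 9.57e-07), and GKO was above DKO by 1.71 (SE 0.062, adjusted p = 4.1e-07). The AKO difference of -0.17 (SE 0.062, 95% interval -0.31 to -0.026) had an adjusted p of 0.224. These comparisons share the naïve, DKO or AKO libraries and are not independent of one another.

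The interaction of the knockouts was tested as (GKO minus naïve) minus (DKO minus AKO). For T it was 1.54 (SE 0.088, 95% interval 1.34 to 1.74, adjusted p = 1.27e-05, limma), since T was higher in GKO than in naïve ESCs and lower in DKO than in AKO. The 2 sides of this test are not matched for AMPK. Prkaa1 was lower in GKO than in naïve ESCs and lower in DKO than in AKO (-1.35, SE 0.067, adjusted p = 1.06e-06), and its own interaction was 0.97 (SE 0.094, adjusted p = 0.000117), so a Gys1 effect and a difference in Prkaa1 cannot be told apart for T. With the primed libraries added to the fit, their distance for T raised the SE from 0.062 to 0.60. The adjusted p for T then became 0.742 in GKO against naïve ESCs, 0.0774 in DKO against naïve ESCs, 0.111 in DKO against AKO, 0.0455 in GKO against DKO and 0.213 for the interaction. These were the highest values over the 13 alternatives of each comparison (16 for the interaction), and the lowest were 0.00231, 2.23e-07, 4.29e-07, 1.47e-07 and 5.64e-06.

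Against naïve ESCs, T differed in primed ESCs by -1.93 (SE 0.60, adjusted p = 0.0145, limma). The size of this difference rested on the library. It was -3.17 without primed library 1 and -0.69 without primed library 2. Such a fit takes the spread of the remaining primed library from the other lines. The call was lost without naïve library 1 (adjusted p = 0.0582) and in a fit of the naïve and primed libraries alone (adjusted p = 0.0789, the highest of 12 alternatives).

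Eomes, the T-box factor needed for definitive endoderm and early mesoderm, moved far less between the knockout lines than T. It had 19.8 and 20.3 TPM in naïve ESCs, 17.4 and 18.3 in AKO, 16.7 and 16.0 in DKO, 17.7 and 17.0 in GKO, with 7.44 and 1.61 in primed ESCs. The naïve libraries were above those of every knockout line, the ranges of AKO and GKO overlapped, and both primed libraries were the lowest. Eomes fell by 0.20 in GKO (SE 0.050, adjusted p = 0.00687, limma) and by 0.28 in DKO (SE 0.050, adjusted p = 0.00124), each against naïve ESCs. With all 10 libraries in the fit these adjusted p-values were 0.713 and 0.614, the highest of 13 alternatives each, the lowest being 0.00681 and 0.00114. The AKO difference was -0.16 (SE 0.050, adjusted p = 0.153). Between GKO and DKO, Eomes differed by 0.079 (SE 0.050, 95% interval -0.033 to 0.19, adjusted p = 0.203), and the interaction was -0.082 (SE 0.070, adjusted p = 0.380). The first became 0.050 without DKO library 2 or GKO library 1, and the interaction -0.050 without AKO library 1 and -0.052 without DKO library 1 or GKO library 2. Primed ESCs were below naïve ESCs by -2.17 (SE 0.41, adjusted p = 0.000924), by -3.01 without primed library 1 and by -1.32 without primed library 2.

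The homeobox genes were lower in level. Mixl1, a paired-type factor of the streak, had 1.37 and 1.14 TPM in naïve ESCs, 1.28 and 1.20 in AKO, 1.298 and 1.05 in DKO, 0.904 and 1.16 in GKO, with 1.29 and 0.173 in primed ESCs. GKO lay below AKO but overlapped naïve ESCs and DKO, and primed library 2 was the lowest of all. No comparison called Mixl1 in the reported fits. GKO against naïve ESCs gave -0.15 (SE 0.10, adjusted p = 0.216, limma), which quantile normalization moved to -0.30 and past the threshold (adjusted p = 0.0264, with 0.0264 to 0.697 over 12 alternatives). The value was -0.26 with a pseudocount of 0.1, -0.076 without naïve library 1, -0.059 without GKO library 1 and -0.24 without GKO library 2. Primed against naïve ESCs gave -0.46 (SE 0.25, adjusted p = 0.122). That value was -0.94 without primed library 1, 0.027 without primed library 2, -0.69 after quantile normalization (adjusted p = 0.015) and -1.13 with a pseudocount of 0.1.

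Evx1, an even-skipped homeobox factor of the posterior streak, had 2.71 and 2.50 TPM in naïve ESCs, 1.66 and 2.64 in AKO, 1.46 and 1.92 in DKO, 1.22 and 0.934 in GKO, with 0.088 and 0.040 in primed ESCs. Both GKO libraries were below those of the other serum/LIF/2i lines, AKO overlapped both naïve ESCs and DKO, and primed ESCs were near 0. Evx1 fell by 0.80 in GKO against naïve ESCs (SE 0.15, adjusted p = 0.00147, limma), and it passed the threshold in 12 of 12 alternatives, with a difference of -1.21 when the pseudocount was 0.1. In DKO it fell by 0.42 (SE 0.15, adjusted p = 0.0361). This DKO call was lost without naïve library 1 (adjusted p = 0.133), naïve library 2 (0.0765) or DKO library 1 (0.199), and without the filter on low values (0.0919), over a range of 0.0132 to 0.199. GKO against DKO gave -0.37 (SE 0.15, adjusted p = 0.0592), and the interaction was -0.59 (SE 0.21, adjusted p = 0.0550). The first passed the threshold with a pseudocount of 0.1 (-0.61, adjusted p = 0.0456), quantile normalization (0.0379) and the compared lines only (0.0268), over a range of 0.0268 to 0.285. The interaction passed it with quantile normalization (adjusted p = 0.0457), without AKO library 2 (0.0102) and without DKO library 1 (0.0461), over a range of 0.0102 to 0.162, and it was -0.36 without AKO library 1 and -0.91 with a pseudocount of 0.1. Leaving out AKO library 1, in which Evx1 was the lower, turned DKO minus AKO from -0.21 (adjusted p = 0.248) to -0.44 (adjusted p = 0.0271), and leaving out AKO library 2 gave 0.012 (adjusted p = 0.951, range 0.0271 to 0.951). It was -0.090 without DKO library 1 and -0.34 without DKO library 2. Primed ESCs were below naïve ESCs by -1.76 (SE 0.15, adjusted p = 4.28e-06), by -1.79 and -1.73 without primed library 1 or 2, and by -4.06 with a pseudocount of 0.1. Evx1 reached 1 TPM in no primed library and passed the filter only through serum/LIF/2i libraries, so this primed change is a description.

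Gsc, Lhx1, Foxa2, Mesp1 and Cer1 did not pass the filter and were not tested. Gsc, the goosecoid homeobox factor of the organizer, lay between 0.238 and 0.735 TPM in the 8 serum/LIF/2i libraries and was at 2.45 and 0.268 TPM in primed ESCs. Lhx1, a LIM homeobox factor of the anterior streak, was at most 0.224 TPM in those 8 libraries and at 5.16 and 0.338 TPM in primed ESCs. For both genes primed library 1 alone rose above 1 TPM, and for Gsc primed library 2 lay within the range of the other lines. Foxa2, the forkhead factor of endoderm and node, was at most 0.119 TPM in the 8 libraries and at 1.79 and 0.065 TPM in primed ESCs. Cer1, the secreted inhibitor, was listed at 0 in all 8 and was at 9.80 and 0.484 TPM in primed ESCs. Mesp1, a bHLH factor of cardiac mesoderm, stayed under 0.22 TPM in all 10 libraries, and its highest values were those of DKO (0.146 and 0.213 TPM). Gsc, Lhx1, Foxa2 and Cer1 were thus above 1 TPM in a single library, primed library 1.

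The members' counts were read against those of all tested genes. In GKO against naïve ESCs, 3 of the 4 tested members were called (T higher, Eomes and Evx1 lower), where 7051 of 11186 genes, or 63.0%, were called (29.2% higher and 33.9% lower). In DKO against naïve ESCs, 3 of 4 were called, all lower, beside 57.9% of all genes (26.9% higher, 31.0% lower), and without the filter Wnt3 was called higher there in place of Evx1. GKO against DKO called 1 of 4, T, beside 56.0% of all genes (26.5% higher, 29.4% lower). DKO against AKO also called T alone, beside 58.0%, and so did the interaction, beside 39.4%. AKO against naïve ESCs called 0 of 4 in limma, beside 1.56% of all genes (175 genes), and 2 members, T and Eomes, had an unadjusted p under 0.05, as had 1878 genes. The count of 175 fell to between 4 and 6 when any naïve or AKO library was left out. In primed against naïve ESCs, 4 of 5 tested members were called, 1 higher and 3 lower, beside 80.0% of 12060 genes (37.4% higher, 42.5% lower). The higher one was Wnt3, tested only through its primed libraries, and without it 3 of 4 were called, all lower. Among these, Evx1 reached 1 TPM in no primed library and was tested only through serum/LIF/2i libraries, so its call is a description. With so many genes called in most comparisons, these shares set the members apart in none of them. The median difference over the tested members was -0.17 in GKO and -0.35 in DKO, each against naïve ESCs, where the medians over all tested genes were -0.027 and -0.019.

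**Figure D2:**
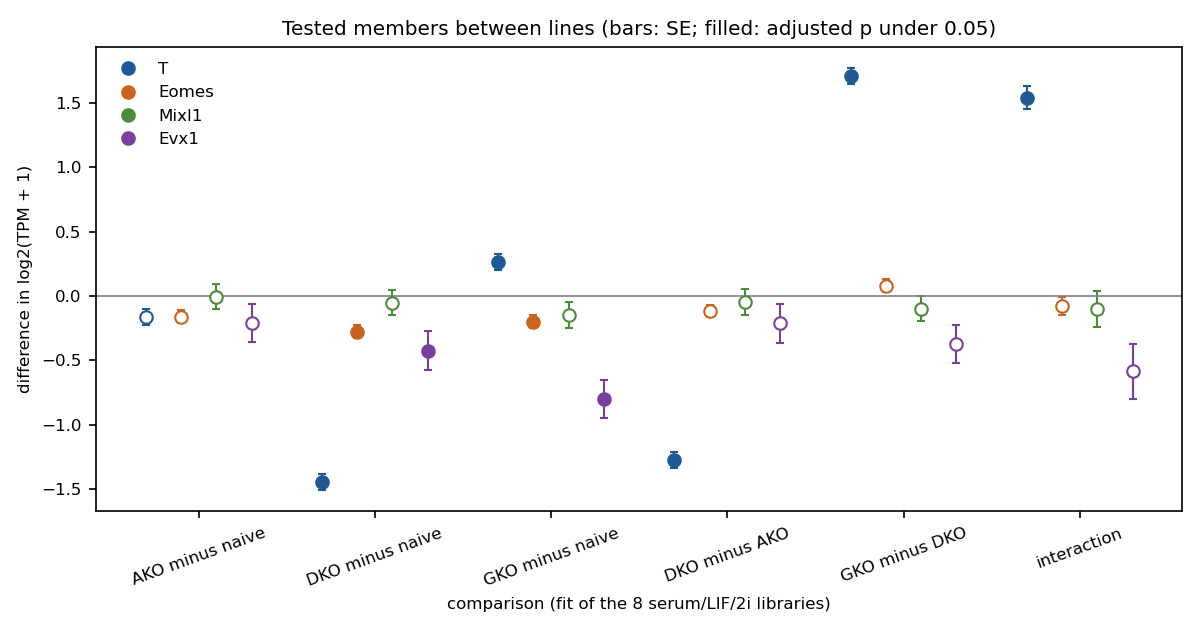
Differences in log2(TPM + 1) between lines for the 4 members tested in the fit of the 8 serum/LIF/2i libraries (points, limma estimate; bars, SE; filled points, adjusted p under 0.05; n = 2 libraries per line). T ranges from -1.44 in DKO minus naïve to 1.71 in GKO minus DKO, while the Eomes and Mixl1 differences all lie between -0.28 and 0.079.

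The Nodal pathway acts upstream of these genes, and all 17 of its listed genes were tested. In GKO against naïve ESCs 7 were higher, 4 lower and 6 not called (median 0.061, beside -0.027 over all tested genes). In DKO 4 were higher, 6 lower and 7 not called (median 0.030, beside -0.019). The share called over all tested genes was 63.0% in GKO and 57.9% in DKO. Tdgf1, the Nodal co-receptor and the most abundant of the list, held 431 and 426 TPM in naïve ESCs, between 443 and 467 TPM in the knockout lines and at 3.05 and 0.543 TPM in primed ESCs. It was far lower in both primed libraries than in all others. Lefty2, a feedback inhibitor of Nodal, had 238 and 225 TPM in naïve ESCs, 292 and 264 in AKO, 96.2 and 97.9 in DKO, 97.1 and 94.6 in GKO, with 79.2 and 15.4 in primed ESCs. DKO and GKO overlapped each other and lay below both naïve ESCs and AKO.

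Lefty2 differed from naïve ESCs by -1.26 in GKO (SE 0.052, adjusted p = 4.31e-07, limma) and by -1.24 in DKO (SE 0.052, adjusted p = 4.89e-07). Its relative Lefty1 differed by -1.55 (SE 0.11) and -1.3 (SE 0.11) in these lines. With all 10 libraries in the fit the adjusted p for Lefty2 became 0.0840 and 0.0958, and that for Lefty1 0.183 and 0.273, the highest of 13 alternatives in each case, and the lowest were 1.74e-07, 1.81e-07, 2.33e-06 and 8.02e-06. Lefty1 had 22.0 and 22.2 TPM in naïve ESCs, 7.60 and 9.21 in DKO, 6.90 and 6.88 in GKO, with 477 and 34.0 in primed ESCs, so primed library 1 was again the higher. The ligand convertase Furin was higher in GKO (0.53, SE 0.070) and lower in DKO (-0.84, SE 0.070) than in naïve ESCs, and GKO was above DKO by 1.36 (SE 0.070, adjusted p = 1.8e-06). Smad3, a transducer of Nodal and Activin, rose from 3.56 and 3.62 TPM in naïve ESCs to 8.06 and 7.27 TPM in GKO (0.92, SE 0.083, adjusted p = 2.08e-05). The ligand Gdf1 was lower in GKO than in DKO (-0.80, SE 0.11), but among these lines it reached 1 TPM in DKO alone, so this is a description.

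Of 18 Wnt and BMP ligands, receptors and transducers, 14 were tested. In GKO against naïve ESCs 6 were higher and 5 lower (median 0.092), and in DKO 4 were higher and 6 lower (median -0.084). Over all tested genes 29.2% were higher and 33.9% lower in GKO (median -0.027), and 26.9% and 31.0% in DKO (median -0.019). Ctnnb1, which encodes β-catenin, was the most abundant, with 208 and 203 TPM in naïve ESCs beside 243 and 247 TPM in DKO. Tcf7l1, a repressor of Wnt targets, had 34.5 and 35.6 TPM in naïve ESCs, 34.6 and 32.1 in AKO, 54.9 and 55.7 in DKO, 27.5 and 26.1 in GKO, with 57.1 and 51.1 in primed ESCs. Among the serum/LIF/2i lines it was highest in DKO and lowest in GKO, where T was lowest and highest, and GKO minus DKO was -1.02 (SE 0.048, adjusted p = 1.29e-06, limma). In GKO against naïve ESCs the Wnt secretion factor Wls (-0.71, SE 0.091) and Tcf7l2 (-0.55, SE 0.11) were lower and the BMP receptor gene Bmpr1a was higher (0.65, SE 0.055), each at an adjusted p of at most 0.00178. Wls was at 0.567 and 0.595 TPM in GKO and passed the filter only through naïve, AKO and DKO libraries, so its value is a description. In DKO the Wnt co-receptor gene Lrp5 (-0.52, SE 0.056) and Tcf7l2 (-0.52, SE 0.11) were lower, and Wnt5b was higher in GKO than in DKO (0.64, SE 0.066).

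Known β-catenin targets other than T did not all follow it. Of 15 listed, 8 were tested. In GKO against naïve ESCs 2 were higher and 1 lower (median 0.045), in DKO 1 was higher and 4 were lower (median -0.12), and in GKO against DKO 4 were higher and 1 lower (median 0.28, beside -0.020 over all genes). The shares called over all tested genes were 63.0%, 57.9% and 56.0% in these comparisons, in that order. Cdx1 had the highest mean TPM over all 10 libraries, but Tcf7 was above it in AKO (26.6 and 25.5 TPM) and in primed ESCs (37.4 and 42.0 TPM). Cdx1 itself had 29.6 and 29.0 TPM in naïve ESCs, 22.0 and 21.3 in AKO, 25.5 and 25.6 in DKO, 63.6 and 66.5 in GKO, with 0.532 and 0.216 in primed ESCs. It was highest in GKO by a wide margin (GKO minus naïve 1.12, SE 0.041, adjusted p = 2.32e-07). The feedback gene Axin2 was higher in GKO (0.46, SE 0.051), and Znrf3 was lower there (-0.38, SE 0.072). In DKO, Lef1 (-0.45, SE 0.083) and Sp5 (-0.44, SE 0.078) were lower than in naïve ESCs. Lef1 was at 0.437 and 0.459 TPM in DKO and passed the filter only through naïve, AKO and GKO libraries, so its value is a description. Apcdd1 was higher in DKO, at 13.7 and 15.2 TPM against 5.44 and 5.50 in naïve ESCs (1.25, SE 0.071, adjusted p = 2.32e-06, limma). Sp5 was higher in GKO than in DKO by 0.60 (SE 0.078, adjusted p = 0.000233). With all 10 libraries its adjusted p-values were 0.138 for DKO against naïve ESCs and 0.0558 for GKO against DKO, the highest of 13 alternatives each, the lowest being 0.000916 and 0.000162.

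Other genes of the streak and its derivatives were mostly under the filter. Of 16 streak and mesoderm genes 6 were tested, and in GKO against naïve ESCs 4 were higher and 0 lower (median 0.62). In DKO 3 were higher and 1 lower (median 0.35). Over all tested genes 29.2% were higher and 33.9% lower in GKO (median -0.027), and 26.9% and 31.0% in DKO (median -0.019). Nkx1-2, a caudal epiblast gene, was the most abundant in the serum/LIF/2i lines. It had 18.2 and 19.5 TPM in naïve ESCs, 21.9 and 20.4 in AKO, 17.0 and 15.8 in DKO and 34.9 and 37.1 in GKO. It was therefore highest in GKO and lowest in DKO of the serum/LIF/2i lines, as T was, with GKO minus DKO at 1.09 (SE 0.060, adjusted p = 2.36e-06, limma). Cdx2 rose in both, at 2.57 and 2.66 TPM in naïve ESCs, 6.73 and 6.86 in DKO and 6.62 and 7.27 in GKO. The somite factor Mesp2 was higher in GKO (0.97, SE 0.096), and Snai1 (0.61, SE 0.073) and Dll3 (0.54, SE 0.095) were higher in DKO. Dll3 was also among the genes called higher in GKO (0.34, SE 0.095). It reached 1 TPM only in DKO and in GKO library 1 among these lines, so its values are descriptions. Of 13 endoderm and node genes 4 were tested, with 2 higher in GKO (Hnf4a by 0.82, SE 0.14, and Gata4 by 0.63, SE 0.11) and 1 in DKO (Hnf4a, 0.67, SE 0.14). Gata4 reached 1 TPM in the GKO libraries alone, so it was tested only through the line in which it was high and its value is a description. The most abundant of them, Hhex, lay between 6.87 and 9.42 TPM in the 8 libraries.

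In primed against naïve ESCs, 6 of 10 tested streak genes were higher and 4 lower, beside 37.4% higher and 42.5% lower over all tested genes. However, 4 of the 6 higher genes reached 1 TPM in the primed libraries alone and had to differ. Of the lower genes, Mesp2 (0 and 0 TPM) and Cdx2 (0.502 and 0.032 TPM) were under 1 TPM in both primed libraries. These passed the filter only through serum/LIF/2i libraries. Without either primed library 6 were tested, 2 higher and 4 lower. The summed level of all 16 streak genes, tested or not, was 113 and 80.0 TPM in the primed libraries and 31.9 and 33.4 TPM in naïve ESCs. The endoderm and node genes summed to 34.3 TPM in primed library 1 and 10.3 TPM in primed library 2, and the Nodal pathway to 825 and 281 TPM. Both lists were thus higher in primed library 1, in which Cer1, Lhx1, Gsc and Foxa2 were above 1 TPM, and their part in the members' levels was not tested.

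T and Eomes are 2 of the T-box genes, and of 15 others 11 stayed under 1 TPM in all 10 libraries. The 4 tested were Tbx3, Tbx20, Tbx18 and Mga, of which 3 were higher and 1, Mga, was lower both in GKO and in DKO against naïve ESCs. All tested genes gave a share called of 63.0% in GKO and 57.9% in DKO. Among these lines, Tbx20 reached 1 TPM only in DKO and GKO and Tbx18 only in GKO, so both were tested only through lines in which they were high. Tbx3, a naïve-state factor, was the most abundant in the serum/LIF/2i lines. It had 87.4 and 80.5 TPM in naïve ESCs, 116 and 120 in DKO, 103 and 97.4 in GKO, with 0.331 and 0.113 in primed ESCs. DKO was highest, while T was lowest there among the serum/LIF/2i lines. Tbx20 had 0.320 and 0.377 TPM in naïve ESCs, 2.10 and 1.97 in DKO and 2.04 and 1.61 in GKO, and Tbx18 was at 1.35 and 1.11 TPM in GKO.

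Markers of other cell types were compared beside these results, and their part in them was not tested. In GKO against naïve ESCs 7 of 9 naïve markers and 4 of 6 tested primed markers were higher and 0 of either were lower (medians 0.25 and 0.39), beside 29.2% higher and 33.9% lower and a median of -0.027 over all tested genes. By mean TPM over all 10 libraries Nanog was the most abundant naïve marker. It had 441 and 429 TPM in naïve ESCs, 521 and 500 in DKO and 450 and 494 in GKO. Zfp42 was above Nanog in naïve ESCs (474 and 458 TPM) and in AKO. The largest rises in GKO were in Dppa3 (0.59, SE 0.13), Nr0b1 (0.42, SE 0.10) and Esrrb (0.37, SE 0.041). In DKO they were in Dppa3 (1.35, SE 0.13), Esrrb (0.42, SE 0.041) and Tfcp2l1 (0.38, SE 0.042). Prdm14 (0.34, SE 0.065) and Klf2 (0.25, SE 0.075) were higher in GKO than in DKO, the call of Klf2 being lost in 4 alternatives. The value of Klf2 lay between 0.13, without GKO library 2, and 0.36 over the alternatives. In DKO 6 of 9 naïve markers were higher, while 3 of 6 primed markers were higher and 3 lower (medians 0.32 and 0.073), beside 26.9% higher and 31.0% lower and a median of -0.019 over all tested genes. Sfrp2 had the largest rise among primed markers in GKO against naïve ESCs (1.33, SE 0.12, adjusted p = 2.13e-05). The primed marker Zic2 had 14.4 and 13.7 TPM in naïve ESCs, 4.48 and 5.37 in DKO and 33.7 and 33.3 in GKO (GKO minus DKO 2.54, SE 0.072, adjusted p = 2.02e-07, limma). Like T, it was lowest in DKO and highest in GKO among the serum/LIF/2i lines, and Otx2 was lower in DKO (-0.91, SE 0.093), whereas Cldn6 was highest in DKO (1.52 against naïve ESCs, SE 0.088). Dnmt3b, the most abundant primed marker by mean TPM over all 10 libraries but below Zic2 in GKO, rose in DKO. It went from 27.5 and 28.3 TPM in naïve ESCs to 41.0 and 41.3 TPM in DKO (0.55, SE 0.043, adjusted p = 1.26e-05, limma).

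Markers of lineages outside mesendoderm were summed in the same way. The 7 primitive endoderm markers summed to 1.86 and 1.75 TPM in naïve ESCs and to 2.19 and 2.41 TPM in GKO, with Sox7, Pdgfra and Cubn under 1 TPM in all 10 libraries. The 1 tested was Gata4, which passed the filter through GKO alone. Dab2 had the highest mean over all 10 libraries, with 0.665 and 0.826 TPM in naïve ESCs against 0.149 and 0.325 TPM in GKO. Gata4 was above Dab2 in DKO and in GKO (1.385 and 1.307 TPM in GKO). The 8 trophectoderm markers summed to 22.3 and 22.9 TPM in naïve ESCs, 33.3 and 34.0 in DKO and 29.1 and 29.7 in GKO, with Elf5, Gata3 and Krt7 under 1 TPM. Krt8 had the highest mean over all 10 libraries. Tfap2a was above it in naïve ESCs (9.89 and 11.0 TPM against 6.81 and 7.02) and in AKO. Of the 4 tested, 3, Cdx2 and Krt18 (0.89, SE 0.091) among them, were higher and 1, Tfap2a, was lower in GKO, and 3 were higher and 0 lower in DKO. Over all tested genes 29.2% were higher and 33.9% lower in GKO, and 26.9% and 31.0% in DKO. The 6 neural markers summed to 3.99 and 3.86 TPM in naïve ESCs, 7.06 and 7.19 in GKO, with 91.5 and 77.3 in primed ESCs, and Nes, the most abundant and the 1 tested among the serum/LIF/2i lines, was higher in GKO (0.83, SE 0.070). The 6 fibroblast and feeder markers summed to 3.72 and 3.13 TPM in naïve ESCs, 3.36 and 3.42 in DKO, 9.54 and 10.7 in GKO, with 9.62 and 15.9 in primed ESCs. Thy1 held 7.14 and 8.48 TPM of the GKO sums. Col1a1 had 0.739 and 0.724 TPM in GKO against 0.284 and 0.21 in naïve ESCs. Col1a2 had 0.086 and 0.014 TPM in GKO against 0.035 and 0.108 in naïve ESCs. Of the 2 tested genes, Pdgfrb reached 1 TPM only in GKO and in DKO library 1, and Thy1, the most abundant, was higher in GKO (1.24, SE 0.10, adjusted p = 1.14e-05), with Col3a1 and Postn under 1 TPM in all 10 libraries.

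The genes most like T over the 8 serum/LIF/2i libraries, by Pearson correlation of log2(TPM + 1) among tested genes, were Shisa7 (r = 0.999), Jade2 (0.999), Map7d2 (0.998), Camkv (0.996) and Cul1 (0.995). The libraries are pairs from 4 lines, and all 5 genes were lowest in the DKO pair, as T was, so each r is given as a description. Jade2, for example, had 11.1 and 10.1 TPM in naïve ESCs, 9.79 and 10.0 in AKO, 5.24 and 5.15 in DKO and 12.3 and 11.8 in GKO. Over all 10 libraries r with T was -0.20 for Shisa7, 0.85 for Jade2, 0.34 for Map7d2, -0.40 for Camkv and 0.78 for Cul1. For Eomes the genes were Lmtk2 (0.993), Senp2 (0.978), Nat10 (0.967), Lamtor3 (0.966) and Rac1 (0.963), with r of 0.76, 0.93, 0.96, -0.74 and -0.27 over all 10. Between T and Eomes themselves r was 0.59 over 8 libraries and 0.82 over 10.

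The deposited tables hold no coordinates, and positions are those of GRCm39, the assembly named in the study's methods, with GENCODE release M39. T (ENSMUSG00000062327) lies on the plus strand of chr17:8653062-8661328, Eomes (ENSMUSG00000032446) on the plus strand of chr9:118307280-118315200, and Evx1 (ENSMUSG00000005503) on the plus strand of chr6:52290483-52295363. Mixl1 (ENSMUSG00000026497) lies on the minus strand of chr1:180520608-180524599 and Wnt3 (ENSMUSG00000000125) on the plus strand of chr11:103664976-103708853. T, Eomes, Evx1, Gsc and Lhx1 each overlap at least 1 long noncoding gene on the opposite strand, among them Evx1os and Lhx1os, and Wnt3 overlaps 1, Gm73057, on its own strand. The kits recorded keep strand, but whether strand was used in counting is not given in the sources used here, so reads of such pairs may not have been told apart, and strand could not separate the pair of Wnt3.

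Promoter sequence is shown for T, Eomes and Evx1, the members called between lines in the serum/LIF/2i libraries. RefSeq promoter windows (table build GRCm38.p6) matched 9 of the 10 members by symbol, and Mixl1 had no entry. The 250 bases before each start were searched on both strands for CTTTGA, the core bound by TCF/LEF factors, and for AGGTGT, a core bound by T-box factors. CTTTGA was found in 13.8% and AGGTGT in 11.8% of all 32851 windows of this length. Among the members, CTTTGA was found for T and Mesp1, and AGGTGT for T, Evx1 and Mesp1, while the windows of Eomes, Gsc, Cer1, Lhx1, Foxa2 and Wnt3 held neither. The windows below each had 1 exact match in GRCm39, are written 5′ to 3′ on the plus strand, and carry the matches in capitals. T is shown from chr17:8653005-8653061, up to the first base that GENCODE assigns to the gene, Eomes from chr9:118307007-118307256 and Evx1 from chr6:52290233-52290482.
T: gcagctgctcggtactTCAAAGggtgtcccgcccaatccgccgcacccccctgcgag
Eomes: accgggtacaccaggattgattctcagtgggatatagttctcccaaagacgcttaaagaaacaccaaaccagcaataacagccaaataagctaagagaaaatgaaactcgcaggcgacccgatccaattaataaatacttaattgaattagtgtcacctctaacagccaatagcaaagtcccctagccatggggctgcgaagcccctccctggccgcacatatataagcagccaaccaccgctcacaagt
Evx1: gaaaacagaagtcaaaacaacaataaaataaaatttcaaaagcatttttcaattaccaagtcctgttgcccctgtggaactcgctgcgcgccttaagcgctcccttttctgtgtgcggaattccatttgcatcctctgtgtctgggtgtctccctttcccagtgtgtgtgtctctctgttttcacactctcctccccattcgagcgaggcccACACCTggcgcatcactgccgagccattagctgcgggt
In T the capitals mark CTTTGA on the minus strand, 234 bases before the RefSeq start, and in Evx1 they mark AGGTGT on the minus strand, 38 bases before it. The AGGTGT of T lies 14 bases before the RefSeq start, within the 193 bases that are not shown. These are matches of letters only, and the windows without one say nothing of the factors.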

How the data were processed

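Reads from 10 libraries of 5 mouse ESC lines were trimmed with Trim Galore, aligned with STAR and quantified with RSEM by the authors, who deposited the TPM of 21853 protein-coding genes. The submitters' processing notes give Trim Galore 0.6.6, STAR 2.7.9a and RSEM 1.3.3 and list other genome builds than GRCm39, the one in the study's methods. The sample records name an Illumina kit and sequencer, and the methods an MGI kit and sequencer. TPM keeps no depth and has a fixed sum per library only before the limit to protein-coding genes, so the sums of the tables differ, and a strong rise of some genes lowers the others slightly.

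Groups and replicate numbers came from the sample titles. The deposited TPM were taken as log2(TPM + 1). The change of low genes is understated on this scale. A gene was tested if 2 or more libraries of the fit reached 1 TPM. Tests used limma 3.58.1 (R 4.3.3) with an intensity trend and Benjamini-Hochberg adjustment over all tested genes (threshold 0.05). The 8 naïve, AKO, DKO and GKO libraries formed 1 fit (11186 genes), because the primed libraries differ widely for members such as T. Primed against naïve ESCs used all 10 libraries (12060 genes). For a single value, 2 libraries against 2 allow no two-sided exact permutation p below 0.333, and the calls depend on limma sharing the spread between genes. The procedure was tested on simulated data.

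The members and the 13 other gene lists were chosen with earlier results of these data known. Named genes were all members, the 5 genes most correlated with T and with Eomes, and Prkaa1, Prkaa2 and Gys1. Each list added its most abundant gene by mean TPM over all 10 libraries. Zfp42 and Tcf7 are named because they were above that gene in some lines. Also named were up to 3 called genes per list with the largest absolute change in GKO or DKO against naïve or GKO against DKO. Fgf5 is named for the difference between its primed libraries. Alternatives were quantile normalization, a pseudocount of 0.1, median-ratio scaling, a fit without the trend, no filter or a mean of at least 5 TPM, the replicate number as a block, other sets of libraries and each library left out. No library was left out of the reported values.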

Additional observations from a re-analysis of the deposited data

Results flagged for a closer look

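The difference of T between GKO and naïve ESCs was unlike that between DKO and AKO. T was at 19.1 and 17.5 TPM in GKO against 15.7 and 14.5 TPM in naïve ESCs, but at 4.94 and 4.89 TPM in DKO against 13.4 and 13.2 TPM in AKO. The interaction on the log2(TPM + 1) scale was 1.54 (limma, adjusted p = 1.27e-05), with adjusted p-values from 5.64e-06 to 0.213 over 16 alternatives, the highest being the fit with the primed libraries. No other of the 4 tested members was called for this difference in the reported fit, while 4403 of all 11186 tested genes (39.4%) were, among them Zic2 with a larger value (2.23). Prkaa1 also differed on both sides, with an interaction of 0.97 (adjusted p = 0.000117), so the result cannot be read as an effect of Gys1 alone. The clones behind the libraries are not given in the sources used here, so clone and genotype cannot be told apart.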

How the results depend on the processing

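T in DKO against naïve ESCs, in DKO against AKO and in the interaction kept its direction in every alternative and lost its call in 1, the fit of all 10 libraries. That fit reduced the members called to 1 in GKO and 1 in DKO against naïve ESCs, 0 in DKO against AKO and 0 for the interaction, since the spread between the primed libraries enters it. Members called rose to 2 in GKO against DKO with a pseudocount of 0.1, quantile normalization or the compared lines only, to 2 in DKO against AKO without a filter (Wnt3 added), and to 2 for the interaction with quantile normalization, which also gave 4 in GKO and 5 in primed ESCs, each against naïve ESCs. At a mean of at least 5 TPM, 2 were called in GKO, in DKO and in primed ESCs, each against naïve ESCs, with 2 tested. Leaving out 1 library gave 1 to 2 members in DKO against AKO and in the interaction, 2 to 3 in DKO against naïve ESCs and 3 to 4 in primed against naïve ESCs.

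In AKO against naïve ESCs 175 genes were called, but 55 without a filter, 104 without the trend, 27 with all 10 libraries, 92 with the compared lines only and 4 to 6 with 1 library left out. The cause was not tested. In the other comparisons the counts stayed within 1.5 times the reported ones in these alternatives.

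With the replicate number as a block, 94 genes were called in AKO against naïve ESCs, 6933 in GKO and 6366 in DKO against naïve ESCs, 6133 in GKO against DKO, 6374 in DKO against AKO, 4176 for the interaction and 9573 in primed against naïve ESCs, and no count of members changed. Differences between libraries 1 and 2 correlated between lines across genes at -0.13 to 0.078. No pairing by replicate number was seen, which cannot exclude a shared batch that touched few genes.

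Signs turned for Pou5f1 in GKO under quantile normalization (0.054) and, for values that were not called, for Mixl1 in AKO under quantile normalization (0.0077) and median-ratio scaling (0.00013). Without 1 library, Mixl1 ranged from -0.13 to 0.031 in DKO, -0.079 to 0.069 in AKO, -0.13 to 0.036 in DKO minus AKO and -0.94 to 0.027 in primed ESCs, and Evx1 from -0.44 to 0.015 in AKO and -0.44 to 0.012 in DKO minus AKO. Of the single-gene values recomputed, 1595 kept direction and side of the threshold, 45 lost and 10 gained a call and 11 reversed.

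The number of reads behind each TPM is unknown, which limits every statement on Wnt3, Gsc, Lhx1, Foxa2, Mesp1 and Cer1 in the serum/LIF/2i lines. With 1 library of a line left out, the remaining one is assumed to vary like the other lines. There were 2 libraries per line, of unstated clones, and protein was not measured.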
